A study of Saccharomyces cerevisiae with 36 samples.

Results

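The 38 genes described here are the nuclear genes for the proteins of the mitochondrial respiratory chain and ATP synthase of Saccharomyces cerevisiae, out of 6600 open reading frames in the count files. They were chosen by name and function and not by a rule on measured values, but with earlier results of these data known. They are 4 subunits of complex II, 9 of complex III, 9 of complex IV, 14 of complex V and the 2 forms of cytochrome c. All 38 passed the filter on low counts, which 6017 of the 6600 passed. The strains derive from BY4742, a haploid laboratory strain of mating type alpha. One was wild type (WT), one lacked MPK1 (SLT2), which encodes the MAP kinase at the end of the cell wall integrity pathway, and one lacked RRP6, which encodes a 3′-to-5′ exonuclease of the nuclear exosome. The fourth lacked both genes (double deletion). Cells grown in YPD, a rich glucose medium, to mid-log phase at 25 °C were either sampled without heating (0 min) or brought to 42 °C by adding pre-warmed medium and sampled after 10 or 45 min. Total RNA of 3 libraries, named A, B and C, was sequenced for each of the 12 groups, 36 libraries in all. The labels give the duration as a bare number, and it was read as minutes because the treatment text names minutes. The series calls the libraries biological replicates but does not name separate cultures for each, so p-values measure the spread between libraries.

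As background, electrons from succinate enter the chain at complex II (succinate dehydrogenase), pass from ubiquinol through complex III (cytochrome bc1) to cytochrome c, and reach oxygen at complex IV (cytochrome c oxidase). Complexes III and IV pump protons, and complex V (ATP synthase) uses the gradient to make ATP. S. cerevisiae has no proton-pumping complex I and ferments when glucose is plentiful. Transcription of many respiratory genes is then held low and is raised by the Hap2/3/4/5 complex, which binds CCAAT boxes and whose limiting part is Hap4, and by the heme-dependent activator Hap1. Laboratory strains of this background carry a HAP1 allele with a Ty1 insertion. COX5A and COX5B encode alternative forms of subunit 5 of complex IV, and CYC1 and CYC7 alternative forms of cytochrome c. The COX5A and CYC1 forms predominate in air, and COX5B and CYC7 are known as hypoxic genes repressed by Rox1.

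The upstream sequences of these 4 isoform genes are shown because the levels within each pair moved apart under heat. Each line gives 150 bases, from base 250 to base 101 before the start codon, read 5′ to 3′ on the gene's strand from the RefSeq genome of build R64. Capitals mark CCAAT (the Hap2/3/4/5 box), AGGGG (the stress response element, bound by Msn2 and Msn4), GAANNTTC (paired heat shock factor units) and ATTGTT (the core of the Rox1 site), each on either strand.
COX5A (YNL052W), chrXIV:531475-531624, + strand: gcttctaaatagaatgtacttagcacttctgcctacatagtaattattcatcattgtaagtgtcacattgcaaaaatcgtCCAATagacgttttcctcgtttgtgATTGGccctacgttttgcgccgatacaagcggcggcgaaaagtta
COX5B (YIL111W), chrIX:154972-155121, + strand: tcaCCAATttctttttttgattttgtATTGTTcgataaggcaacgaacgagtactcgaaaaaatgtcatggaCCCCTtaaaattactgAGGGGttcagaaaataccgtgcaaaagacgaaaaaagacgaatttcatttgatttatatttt
CYC1 (YJR048W), chrX:526085-526234, + strand: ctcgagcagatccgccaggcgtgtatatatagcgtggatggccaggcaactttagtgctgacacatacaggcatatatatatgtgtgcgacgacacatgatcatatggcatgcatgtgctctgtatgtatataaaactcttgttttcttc
CYC7 (YEL039C), chrV:80078-80227, − strand: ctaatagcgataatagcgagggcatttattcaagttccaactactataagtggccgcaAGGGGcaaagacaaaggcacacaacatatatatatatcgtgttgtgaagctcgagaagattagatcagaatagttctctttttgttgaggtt

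In these stretches COX5A held a CCAAT box on each strand. COX5B held 1 CCAAT box, 1 Rox1 core and an AGGGG on each strand, whose first bases lay 178 and 162 bases before the start codon. CYC7 held 1 AGGGG, 192 bases before its start codon, and CYC1 none of the 4 letter strings. Nearer the start codon, outside the printed stretch, COX5A held a Rox1 core at base 95, and COX5B a CCAAT box at base 72 and a Rox1 core at base 81. Bases more than 250 before the start codon were not searched, so the absence of a match does not mean that a gene lacks the site.

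In the window from 250 bases before to 50 bases after the start codon, CCAAT occurred in 32 of the 38 genes (84.2%), against 43.3% of the 6001 genes with such a window. AGGGG occurred in 17 of the 38 (44.7%), against 21.6% of all windows. GAANNTTC was found in 3 of the 38 (7.89%, against 11.8%) and ATTGTT in 15 (39.5%, against 35.2%). After 10 min of heat in WT, the median log2 change was 0.88 over the 17 genes with AGGGG and 0.08 over the 21 without it. After 45 min these medians were 0.62 and −0.67. The sets overlapped: at 10 min single genes ran from −0.36 to 6.94 with AGGGG and from −1.11 to 2.56 without. AGGGG occurred in 3 of 4 genes of complex II, 5 of 9 of complex III, 3 of 9 of complex IV and 5 of 14 of complex V. Motif and complex were not separated. The other motifs showed less of a gap at 10 min: 0.24 with CCAAT and 0.32 without, 0.22 with ATTGTT and 0.25 without, and 0.17 over the 3 genes with GAANNTTC and 0.25 without. At 45 min the medians were −0.29 with CCAAT and −0.33 without, −0.65 with ATTGTT and −0.28 without, and −0.65 with GAANNTTC and −0.29 without. For mpk1Δ against WT at 10 min the AGGGG medians were in the other order, 0.62 with and 0.79 without. The gap there was larger for GAANNTTC, 0.97 over its 3 genes and 0.66 without. A match of letters is a description of the window and does not show that a factor binds there.

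The libraries held 2235918 to 12072112 counts assigned to genes. The lines for reads assigned to no gene made up 15.94% to 50.14% of all counts in the files, highest in the heated libraries of the strains that lack RRP6. The 38 genes together took 0.2275% to 0.8206% of gene counts. The deletions were visible in the counts: SLT2 had 0 to 2 counts in the 18 libraries lacking it and 111 to 1780 in the other 18, and RRP6 had 0 to 1 against 40 to 1010. Among markers of the labelled mating type, the summed level of MF(ALPHA)1, MF(ALPHA)2 and STE3 was 4495 to 4764 CPM (counts per 1000000 gene counts) in unheated WT, against 6.908 to 10.54 CPM for the 4 a-cell markers MFA1, MFA2, STE2 and BAR1. In WT the alpha sum was 228.1 to 436 CPM after 45 min and the a sum 61.08 to 89.57 CPM. In mpk1Δ the alpha sum was 201.3 to 405.6 CPM after 10 min, against 1245 to 2267 CPM in WT, and 51.11 to 68.05 CPM after 45 min, below its a sum of 80 to 86.24 CPM. The part of these shifts in the results below was not tested. The libraries that agreed least with their group were those of the heated double deletion, where replicates B and C correlated at r = 0.9536 after 45 min and 0.9578 after 10 min across genes.

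Levels are given as CPM scaled with TMM factors, which were 0.6179 to 1.3876, and changes as log2 differences ± SE from the quasi-likelihood test of edgeR, whose p-values were adjusted over all 6017 genes by Benjamini-Hochberg. A gene is called higher or lower at an adjusted p under 0.05. TMM assumes that most genes do not change. Under total-count scaling the median over all genes in WT lay −0.37 lower after 10 min and −0.71 lower after 45 min of heat, so directions are relative to the scaling. RNA per cell was not measured, and fewer cells and less RNA per cell cannot be told apart. Relative to the median of all genes, the median of the 38 genes was almost the same under either scaling: 0.20 under both after 10 min, and −0.33 and −0.35 after 45 min. Another scaling moves all genes of a comparison by nearly the same amount, so this likeness was fixed in advance and is no check.

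Before heat, levels per kilobase of coding length in WT ran from 3.93 ± 1.91 CPM per kb for CYC7 (SD, n = 3) to 471 ± 2.38 for ATP18, a small subunit of the membrane part of ATP synthase. The low end also held SDH1, the flavoprotein of complex II, at 12.6 ± 2.06, and COX5B at 14.7 ± 5.34. These 3 genes at the low end before heat are, with QCR8, those whose estimates were highest after heat.

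After 10 min at 42 °C in WT, 17 of the 38 genes rose and 7 fell, where 38.2% of all genes rose and 36.2% fell. The members' shares were 44.7% and 18.4%, and their median was 0.24 against 0.04 for all genes. Relative to TMM, complexes II and III moved upward and complex V did not: 3 of 4 genes of complex II and 8 of 9 of complex III rose with none lower, while in complex V 2 rose and 4 fell of 14. Complex IV was split, with 3 higher and 3 lower. After 45 min 11 of the 38 rose and 18 fell, against 41% and 39.2% of all genes. By then 11 of 14 complex V genes and 6 of 9 complex IV genes were lower, and 5 of 9 complex III genes higher with none lower. Under total counts the whole set shifted down. At 10 min 12 members were then higher and 12 lower, with complex III at 7 and 0 and complex V at 0 and 8, and at 45 min 5 were higher and 25 lower.

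**Figure D1:**
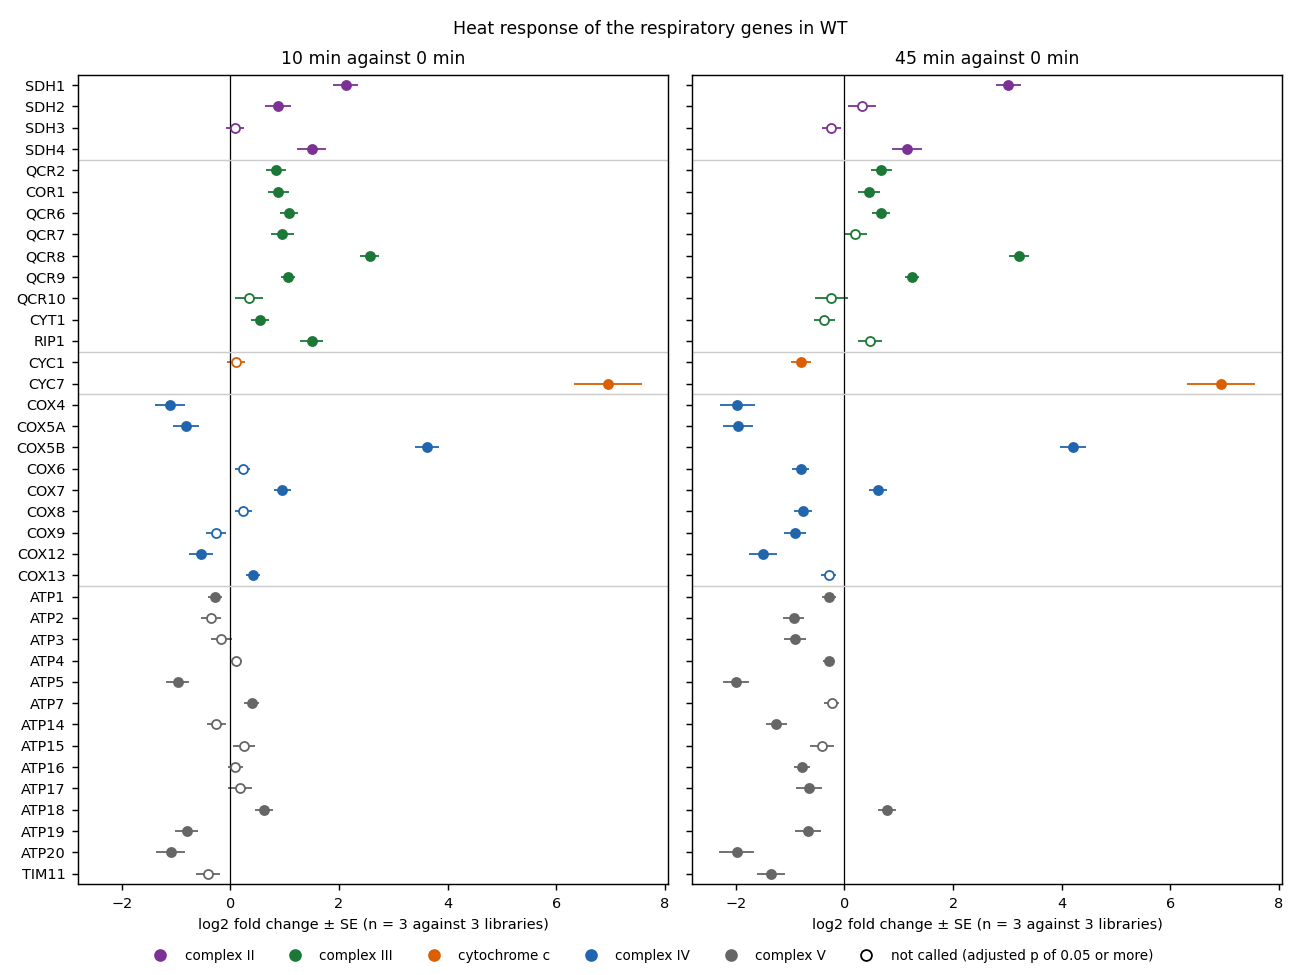
Log2 change in WT after 10 and 45 min at 42 °C for each of the 38 genes, with bars of 1 SE, coloured by complex and filled where called. CYC7 and COX5B lie farthest to the right at both times, while COX4, ATP5 and ATP20 lie at the left after 45 min.

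In complex II the largest rise was that of SDH1. SDH1, the catalytic flavoprotein, stood at 20.4, 28.3 and 24.1 CPM in unheated WT (replicates A to C), at 109, 80.7 and 131 CPM after 10 min, and at 201, 146 and 254 CPM after 45 min. The groups did not overlap, and the log2 change was 2.13 ± 0.23 (adjusted p = 1.41e-09) and then 3.02 ± 0.24 (adjusted p = 9.29e-13). SDH2, the iron-sulfur subunit, and SDH4, a membrane anchor, rose at 10 min by log2 0.88 ± 0.24 (adjusted p = 0.00135) and 1.5 ± 0.27 (adjusted p = 1e-05). After 45 min SDH4 was still 1.14 ± 0.28 higher (adjusted p = 0.000447), and SDH2, at 0.32, was not called. SDH3, the anchor that binds heme, kept to 98.0, 90.3 and 88.0 CPM unheated, 93.5, 87.5 and 110 CPM at 10 min and 84.0, 67.3 and 85.1 CPM at 45 min. The 10 min group overlapped the unheated one and the 45 min group lay just below it, with log2 changes of 0.08 ± 0.16 (adjusted p = 0.676) and −0.24 ± 0.17 (adjusted p = 0.198), neither called. Within this 1 enzyme the point estimates at 45 min ran from −0.24 for SDH3 to 3.02 for SDH1.

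In complex III the steepest rise was that of QCR8, a small subunit, at 58.1, 63.5 and 55.1 CPM unheated, 369, 318 and 358 CPM after 10 min and 565, 430 and 651 CPM after 45 min. Its log2 change was 2.56 ± 0.18 (adjusted p = 1.05e-13) and 3.21 ± 0.18 (adjusted p = 7.17e-16), with every heated library above every unheated one. RIP1, the Rieske iron-sulfur protein, rose at 10 min and was not called at 45 min: it stood at 34.2 to 41.6 CPM, then at 83.1 to 133 CPM, then at 40.1 to 75.1 CPM. Its change was 1.49 ± 0.21 at 10 min (adjusted p = 1.61e-07) and 0.47 ± 0.22 at 45 min (adjusted p = 0.0509).

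The core proteins COR1 and QCR2 rose by 0.88 and 0.84 at 10 min and were 0.45 and 0.68 higher at 45 min, still called, though −0.29 and −0.06 under total counts. The COR1 call at 45 min was also lost when single libraries were left out. CYT1, cytochrome c1, stood at 35.6, 55.3 and 49.1 CPM, then 59.2, 59.5 and 85.8 CPM, then 29.0, 36.9 and 42.3 CPM. It rose by 0.54 ± 0.17 at 10 min (adjusted p = 0.00639), a call lost without WT replicate A at 0 min or replicate C at 10 min, and at 45 min the value was −0.37 ± 0.19 (adjusted p = 0.0782). QCR10, the remaining gene of the 9 that was not called at 10 min, gave 22.5, 23.3 and 18.1 CPM, then 26.5, 27.1 and 28.1 CPM, a difference of 0.34 ± 0.26 (adjusted p = 0.228). Under total counts 7 complex III genes were called higher at 10 min, but at 45 min only 2 were higher and 3 were lower.

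Complex IV genes moved both ways. COX4, the zinc-binding subunit, fell from 60.2, 68.4 and 75.6 CPM to 28.3, 29.8 and 35.6 CPM at 10 min and to 15.9, 16.2 and 20.6 CPM at 45 min. The 3 times did not overlap, and the log2 change was −1.11 ± 0.27 (adjusted p = 0.000575) and −1.97 ± 0.32 (adjusted p = 2e-06). COX12 was also lower at both times, by −0.54 and −1.5, although its 10 min call was lost when single libraries were left out. COX7 rose, by 0.95 and 0.62 (−0.10 at 45 min under total counts), and COX13 rose by 0.41 at 10 min. COX6, COX8 and COX9, not called at 10 min, were lower at 45 min by −0.81, −0.76 and −0.90.

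In complex V the 2 genes higher at 10 min were ATP18 and ATP7, the latter a subunit of the peripheral stalk. ATP18 stood at 85.2, 84.7 and 84.3 CPM, then 122, 141 and 126 CPM, then 165, 129 and 146 CPM, above the unheated libraries throughout. Its change was 0.61 ± 0.17 (adjusted p = 0.0015) and 0.78 ± 0.17 (adjusted p = 0.000112), and at 45 min it was the only complex V gene called higher. ATP7 rose by 0.39 at 10 min (adjusted p = 0.00897) and was not called at 45 min.

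The 4 that fell at 10 min were ATP1, ATP5, ATP19 and ATP20. ATP20, subunit g, which acts in the dimer of the enzyme, went from 44.4, 41.0 and 38.3 CPM to 19.0, 12.3 and 25.0 CPM and then to 9.41, 11 and 10.0 CPM. The change was −1.10 ± 0.26 (adjusted p = 0.000451) and −1.99 ± 0.32 (adjusted p = 1.7e-06). ATP5, the oligomycin sensitivity-conferring protein of the stalk, went from 114, 130 and 138 CPM to 57.3, 62.0 and 74.8 CPM and then to 34.7, 34.9 and 25.0 CPM. It fell by 0.97 ± 0.21 at 10 min (adjusted p = 0.000141) and by 2.00 ± 0.24 at 45 min (adjusted p = 5.62e-09). ATP1, the alpha subunit of the catalytic head, was −0.29 at both times with adjusted p of 0.0392 and 0.0374, calls that did not outlast the removal of single libraries. The beta and gamma subunits, ATP2 and ATP3, were not called at 10 min and lower by −0.93 and −0.92 at 45 min. TIM11, subunit e, was lower by −1.35 at 45 min and ATP14 by −1.26.

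The gap between complexes can be read inside a library, where the scaling cancels. In unheated WT the median log2 CPM of the complex III genes minus that of the complex V genes was −0.73 to −0.59. After 10 min it was 0.39 to 0.93 and after 45 min 0.88 to 1.09, so the order of these medians was the opposite in every heated WT library. The same gap went from −0.91 to −0.66 before heat to 0.83 to 1.12 at 10 min in mpk1Δ, and from −0.51 to −0.32 to 0.51 to 0.92 in rrp6Δ. In the double deletion it went from −0.55 to −0.32 to 0.47 to 1.16. The complex II minus complex V gap in WT moved from between −1.54 and −1.47 to between 0.05 and 0.62 at 45 min. These are medians over whole coding regions not divided by length, so the change of the gap and not its sign at 0 min is what can be read.

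**Figure D2:**
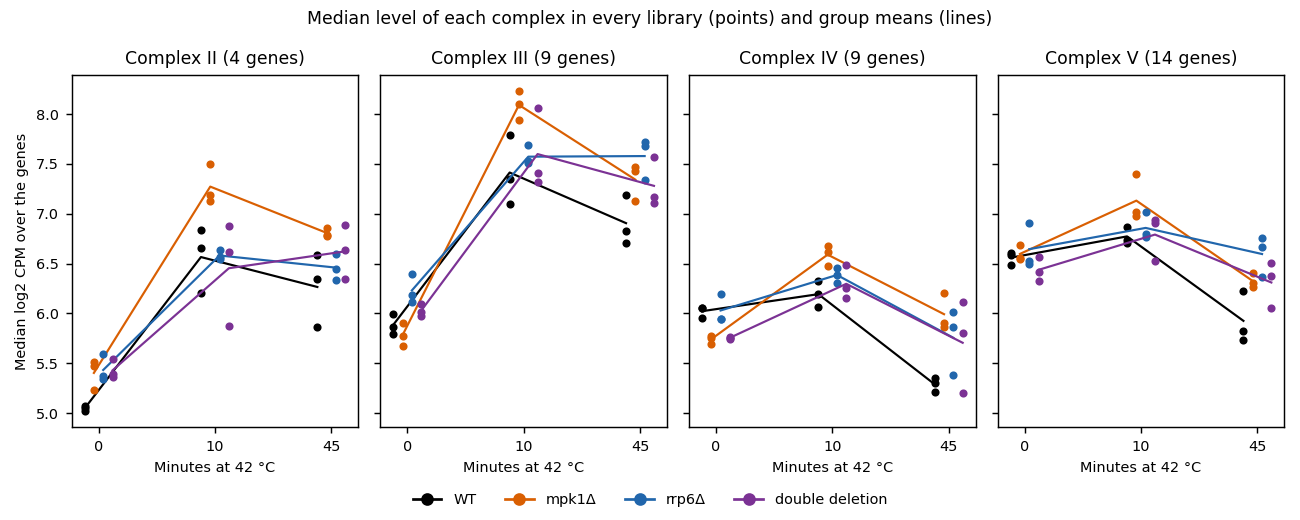
Median log2 CPM over the genes of each complex in every library (points) and group mean (lines), by minutes at 42 °C, for the 4 strains. Complex III rises at 10 min in all 4 strains, while complex V in WT is lower at 45 min than at 0 min.

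The deletion strains shared much of this pattern. At 10 min in mpk1Δ, 29 of the 38 genes rose and 1 fell, against 40.5% and 36.9% of all genes, and the fall was that of CYC1. In rrp6Δ 16 rose and 7 fell (37.2% and 37.7% of all genes), and in the double deletion 25 rose and 2 fell (37.3% and 37.3%). At 45 min the counts were 17 higher and 10 lower in mpk1Δ (42.4% and 39.5% of all genes), 15 and 14 in rrp6Δ (40.5% and 39%), and 17 and 10 in the double deletion (39.9% and 37.9%). At 10 min 13 of the 38 genes were called higher in all 4 strains and none was called lower in all 4. These 13 were SDH1, SDH4, QCR2, QCR6, QCR7, QCR8, QCR9, RIP1, COX5B, COX7, COX13, CYC7 and ATP7. At 45 min 8 were higher in all 4 (SDH1, SDH4, QCR2, QCR8, QCR9, COX5B, COX7 and CYC7) and 7 were lower in all 4 (ATP1, ATP2, ATP5, ATP20, TIM11, COX12 and CYC1). The share of all genes called alike in all 4 strains was not counted, so these numbers cannot be set against all genes. Relative to TMM no strain had a complex III gene called lower at either time, while under total counts 3 were lower in WT and in rrp6Δ at 45 min. With total counts the all-gene median at 10 min shifted by −0.54 in rrp6Δ and by −0.50 in the double deletion. The members' counts became 7 higher and 15 lower, and 15 and 8. Of all 6017 genes, 1380 were then higher and 3187 lower in rrp6Δ, and 1420 and 3180 in the double deletion.

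Between 10 and 45 min most changes were downward. In WT 3 genes rose and 23 fell, against 25% and 21.8% of all genes, and 11 of the 23 were of complex V. In mpk1Δ 2 rose and 28 fell (25.6% and 26.4% of all genes). In rrp6Δ 5 rose and 11 fell (16.9% and 18.1%), and 1 rose and 14 fell in the double deletion (16.9% and 18.3%). The last counts rest on single libraries: 8 to 10 were called in rrp6Δ without its replicate A at 10 or 45 min or replicate C at 10 min, and 5 to 8 in the double deletion without replicate A or B at 45 min or replicate C at 10 min.

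**Figure D3:**
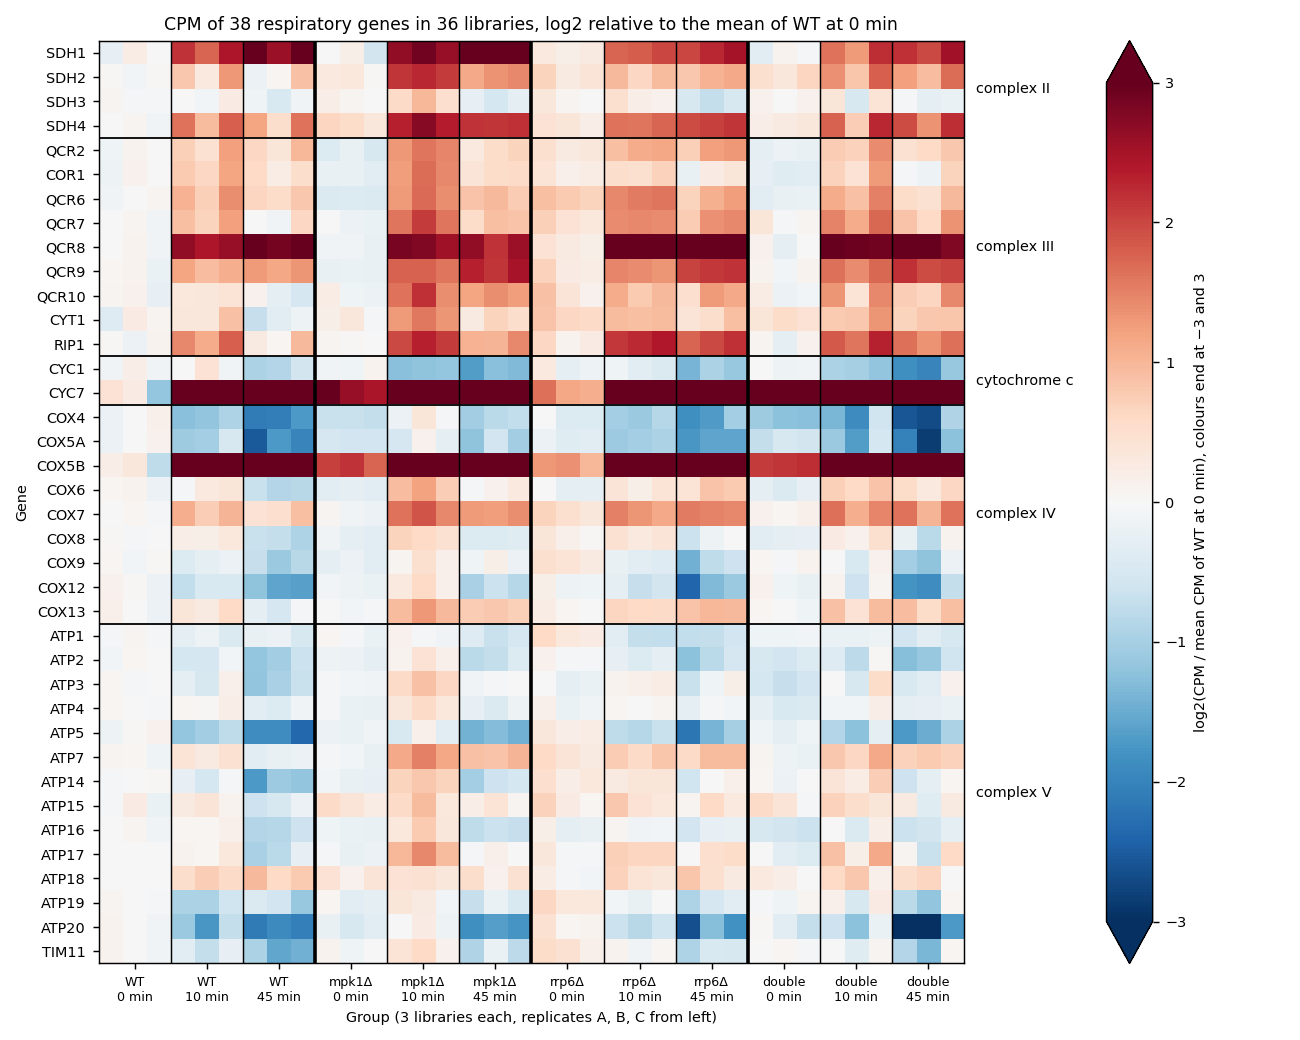
Log2 CPM of the 38 genes in the 36 libraries relative to the mean of unheated WT, with genes in rows grouped by complex and libraries in columns by strain and time. CYC7 and COX5B are high in all heated columns, and most rows of complex V are lower at 45 min than at 0 min in WT.

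The isoform genes gave the largest changes. COX5B, on chromosome IX from 155222 to 155765 with 2 coding exons, stood at 7.61, 8.52 and 3.92 CPM in unheated WT, at 91.7, 66.6 and 96.4 CPM after 10 min and at 153, 85.2 and 152 CPM after 45 min. Every heated library lay above every unheated one, and the change was 3.62 ± 0.23 (adjusted p = 9.75e-15) and 4.21 ± 0.23 (adjusted p = 3.16e-16). COX5A, on chromosome XIV from 531725 to 532186, went the other way, from 77.9, 88.7 and 96.1 CPM to 41.9, 43.0 and 62.5 CPM and to 15.2, 26.4 and 22.3 CPM. It fell by 0.82 ± 0.24 (adjusted p = 0.00304) and by 1.96 ± 0.28 (adjusted p = 1.99e-07), with no overlap between the times.

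CYC7, on chromosome V from 79636 to 79977, rose the most of all 38 genes. It had 1.83, 1.61 and 0.602 CPM before heat, which are 6, 10 and 2 counts, then 153, 77.0 and 290 CPM at 10 min and 157, 89.6 and 276 CPM at 45 min. The change was 6.94 ± 0.62 (adjusted p = 2.78e-11) and 6.93 ± 0.63 (adjusted p = 2.27e-11), a size that depends on the few counts at 0 min. The spread among heated WT libraries was wide, with replicate B lowest and replicate C highest at both times. CYC1, on chromosome X from 526335 to 526664, was at 45.3, 56.2 and 45.2 CPM, 48.5, 65.7 and 45.4 CPM, and 25.3, 26.6 and 33.4 CPM. Its change was 0.10 ± 0.17 at 10 min (adjusted p = 0.587), with overlapping groups, and −0.80 ± 0.19 at 45 min (adjusted p = 0.000304).

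Per kilobase of coding length, COX5B mRNA was 0.0989, 0.0973 and 0.0413 times COX5A mRNA in the unheated WT libraries, 2.22, 1.57 and 1.56 times at 10 min and 10.2, 3.28 and 6.94 times at 45 min. COX5A was the higher of the pair before heat and COX5B in every heated WT library. CYC7 was 0.0389, 0.0276 and 0.0129 times CYC1 before heat, then 3.03, 1.13 and 6.16 times, then 5.98, 3.26 and 7.98 times. Over the 4 strains the log2 ratio of COX5B to COX5A was 3.67 higher after 10 min than before heat and 4.94 higher after 45 min. For CYC7 to CYC1 these differences were 6.53 and 6.97. Each of these 4 differences held in 4 of 4 strains, with p = 1.25e-05 in a two-sided exact permutation test of times within strains, the smallest it can give (adjusted p = 3.13e-05 over 10 ratio tests). The coding sequences of COX5A and COX5B are 69.3% identical with a longest shared run of 12 bases, and those of CYC1 and CYC7 78.1% with a run of 35, so that a short read within that run could come from either gene.

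**Figure D4:**
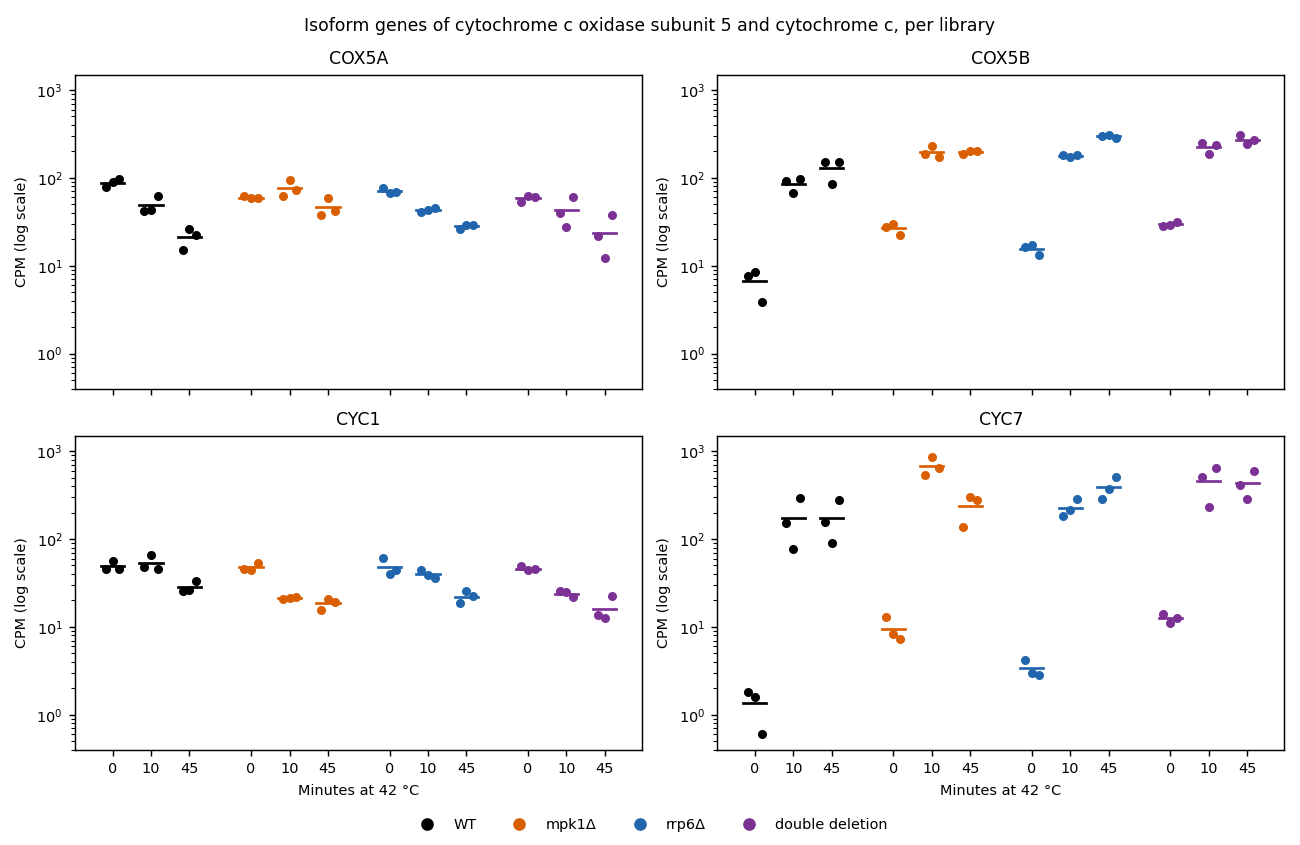
CPM on a log scale of COX5A, COX5B, CYC1 and CYC7 in each library of the 4 strains, by minutes at 42 °C. COX5B and CYC7 rise by 10 min in every strain, and CYC1 at 10 min lies between 20.5 and 21.9 CPM in mpk1Δ and between 45.4 and 65.7 CPM in WT.

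Differences between strains in the isoform genes were present before heat. Unheated mpk1Δ had 27.7, 30.1 and 22.6 CPM of COX5B, all above WT, a difference of 1.95 ± 0.23 (adjusted p = 4.27e-07). CYC7 was at 13.1, 8.23 and 7.37 CPM there, 2.77 ± 0.70 above WT (adjusted p = 0.00611). These were the 2 members called at 0 min between mpk1Δ and WT, both higher, where 9.97% of all genes were higher and 5.22% lower. DESeq2 called 4, 2 higher and 2 lower, and a fit of only the 6 libraries compared called 12, 5 higher and 7 lower. Of 5450 genes in that fit, 1181 were higher and 1086 lower, against 600 and 314 of 6017 in the fit to all 12 groups. Such smaller fits, here and below, can call more or fewer of all genes than the fit to all 12 groups. Where the number of all genes called in such a fit is not given, its member count cannot be set against all genes. After 10 min COX5B reached 186, 228 and 171 CPM in mpk1Δ, 1.19 ± 0.18 above WT (adjusted p = 5.46e-06), and after 45 min 186, 202 and 204 CPM, 0.62 ± 0.18 above (adjusted p = 0.0039, a call lost without WT replicate B). CYC7 reached 539, 869 and 635 CPM at 10 min, 1.97 ± 0.40 above WT (adjusted p = 0.000242). At 45 min it was at 138, 303 and 281 CPM, which overlapped WT (0.48 ± 0.40, adjusted p = 0.299).

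CYC1 went the other way. In mpk1Δ it was at 45.5, 44.4 and 52.9 CPM before heat, at 20.5, 21.1 and 21.9 CPM after 10 min and at 15.4, 20.6 and 19.4 CPM after 45 min. At 10 min it was the only one of the 38 genes lower than in WT, by −1.32 ± 0.17 (adjusted p = 9.8e-07), and its heat response differed by −1.27 ± 0.24 (adjusted p = 0.000598). At 45 min the difference was −0.59 ± 0.19 (adjusted p = 0.00842), which turned to 0.17 under total counts. COX5A, in contrast, was higher in mpk1Δ than in WT, by 0.64 ± 0.24 at 10 min (adjusted p = 0.0291, a call lost without WT replicate A or B or mpk1Δ replicate B) and by 1.06 ± 0.28 at 45 min (adjusted p = 0.00165).

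In rrp6Δ COX5B was also above WT before heat, at 16.5, 17.2 and 13.4 CPM (1.17 ± 0.23, adjusted p = 0.000576), and at 45 min it reached 296, 309 and 286 CPM (1.21 ± 0.18, adjusted p = 3.32e-06). CYC7 in rrp6Δ was at 4.24, 3.01 and 2.87 CPM before heat, 1.25 ± 0.78 from WT (adjusted p = 0.321). The double deletion started at 28.4, 29.5 and 31.2 CPM of COX5B (2.1 ± 0.23, adjusted p = 4.33e-08) and at 14.0, 11.1 and 12.7 CPM of CYC7 (3.16 ± 0.68, adjusted p = 0.000897). Its CYC1 stood at 25.4, 24.6 and 21.7 CPM after 10 min, −1.15 ± 0.17 from WT (adjusted p = 4.45e-06) where mpk1Δ stood at 20.5 to 21.9 CPM.

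Averaged over the 3 times, the log2 ratio of COX5B to COX5A was above WT by 1.2 in rrp6Δ (adjusted p = 0.000357, two-sided exact permutation of strains within times) and by 1.82 in the double deletion (adjusted p = 0.000625). In mpk1Δ it was 0.89 above WT (adjusted p = 0.0418), a call lost in 12 of 18 exact tests that left out 1 library. The direction was not the same at each time: at 45 min the mean log2 ratio was 2.11 in mpk1Δ and 2.57 in WT, and all mpk1Δ libraries lay above WT at 2 of the 3 times. The log2 ratio of CYC7 to CYC1 was above WT by 2.43 in mpk1Δ (adjusted p = 0.000357), 1.27 in rrp6Δ (adjusted p = 0.00139) and 2.67 in the double deletion (adjusted p = 0.000357) by the same exact test. That test treats the libraries of the 3 times as separate. It is not stated whether a letter marks 1 culture sampled at 3 times. If it does, the p-values in this paragraph can be too low.

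Relative to other transcripts, most of the 38 genes stood higher in heated mpk1Δ than in heated WT. At 10 min 31 genes were higher and 1 lower, against 22.6% and 22.3% of all genes, with a median of 0.69. All complexes took part: 4 of 4 genes of complex II, 7 of 9 of complex III, 8 of 9 of complex IV and 11 of 14 of complex V were higher. At 45 min 23 were higher and 3 lower, against 29.9% and 31.5% of all genes, with a median of 0.62. In complex IV 9 of 9 genes were then higher, while complexes III and V had 5 of 9 and 7 of 14. The 3 lower were CYC1, QCR8 and ATP18, and none was called lower under total counts. With total counts the all-gene median shifted by 0.24 at 10 min and by 0.76 at 45 min. Then 36 members were called higher at each time, against 2161 and 3861 of all 6017 genes. Relative to the median of all genes, the members' median at 45 min was 0.59 under TMM and 0.60 under total counts, a likeness that any change of scaling would give. In the same comparisons all 3 alpha-cell markers were called lower, with medians of −2.31 at 10 min and −2.81 at 45 min, and their part in the result was not tested.

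**Figure D5:**
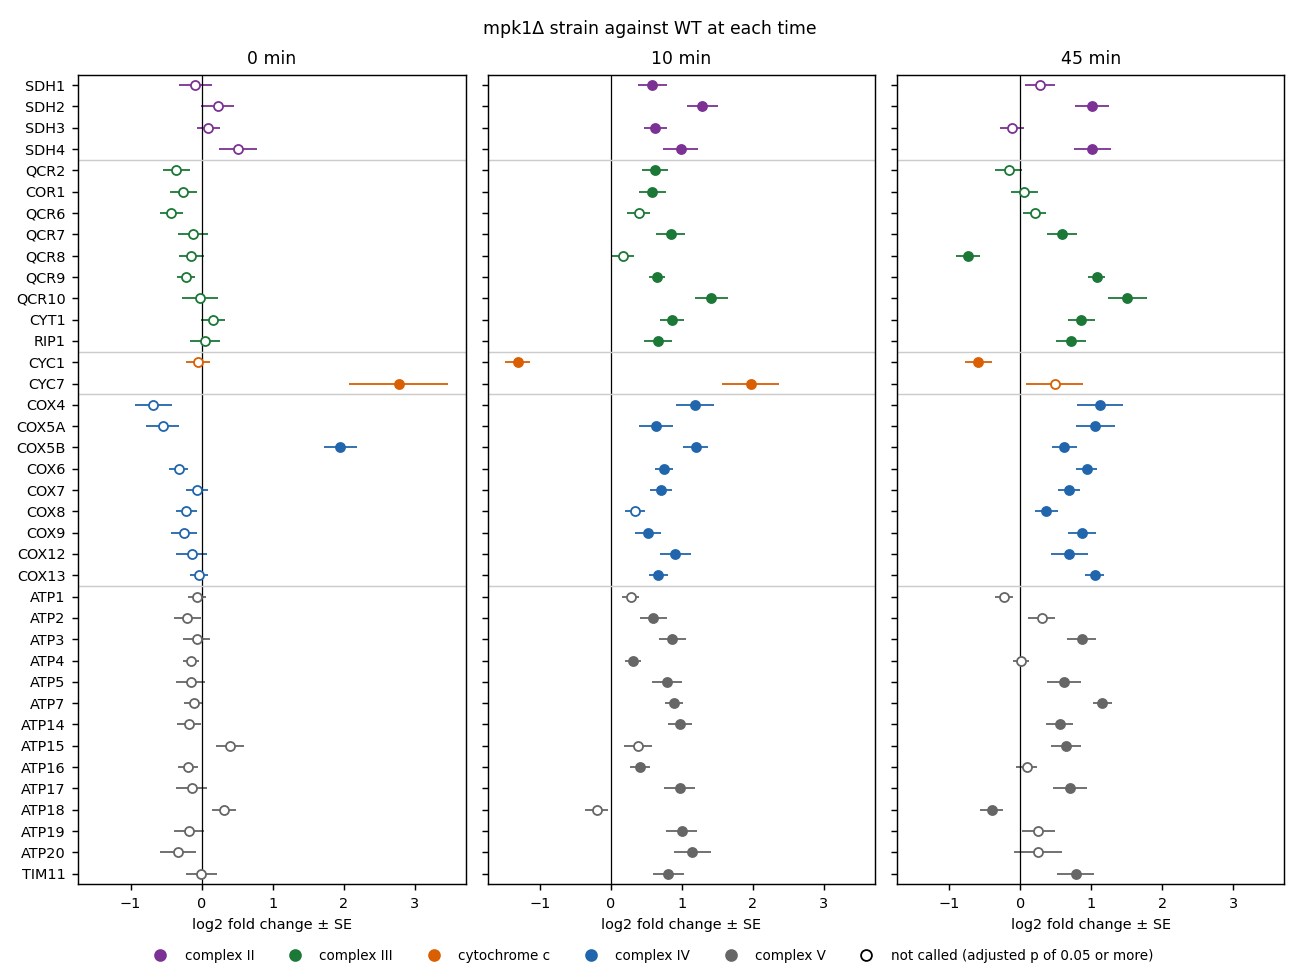
Log2 difference of mpk1Δ from WT at 0, 10 and 45 min for each of the 38 genes, with bars of 1 SE, coloured by complex and filled where called. COX5B and CYC7 are the genes filled at 0 min, and at 10 min all called genes lie to the right except CYC1.

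In complex II, SDH2 differed most at 10 min: it stood at 136, 148 and 132 CPM in mpk1Δ and 54.4, 37.9 and 76.4 CPM in WT, a difference of 1.29 ± 0.22 (adjusted p = 2.63e-05). The 2 strains did not overlap. SDH1 gave the least in the complex, at 154, 179 and 148 CPM in mpk1Δ, a difference of 0.58 whose call was lost without replicate B of either strain. At 45 min SDH4 was at 155, 152 and 158 CPM in mpk1Δ and 78.2, 50.1 and 107 CPM in WT, 1.01 higher, and SDH2 was 1.01 ± 0.24 higher (adjusted p = 0.000648). SDH3, at 77.5, 64.2 and 74.7 CPM in mpk1Δ, overlapped WT with a value of −0.11.

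QCR10 of complex III, not called under heat in WT, differed most within its complex. It stood at 65.3, 96.9 and 56.0 CPM in mpk1Δ after 10 min and at 48.2, 56.3 and 50.4 CPM after 45 min, against 15.02 to 28.1 CPM in all heated WT libraries. The difference was 1.42 ± 0.24 (adjusted p = 2.13e-05) and 1.51 ± 0.27 (adjusted p = 2.54e-05). QCR8, the gene that had risen most in WT, was the exception. At 10 min it was at 423, 406 and 342 CPM in mpk1Δ, overlapping WT (0.16 ± 0.17, adjusted p = 0.436). At 45 min it was at 372, 265 and 350 CPM, below all WT libraries, with −0.74 ± 0.17 (adjusted p = 0.000379) under TMM and 0.04 under total counts.

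COX4 of complex IV took another course in mpk1Δ than in WT. It went from 43.1, 42.7 and 41.7 CPM to 60.5, 87.1 and 65.5 CPM at 10 min and to 33.0, 39.2 and 40.8 CPM at 45 min, while in WT it was lower at both times. The strains differed by 1.18 ± 0.27 (adjusted p = 0.000757) and 1.12 ± 0.32 (adjusted p = 0.00336). Its value before heat was −0.68 (adjusted p = 0.079, and called with the replicate block at an adjusted p of 0.0473), and the heat responses differed by 1.86 ± 0.38 at 10 min (adjusted p = 0.00117). COX8 differed least in the complex, at 102, 97.8 and 88.5 CPM against 74.2, 73.1 and 79.9 CPM at 10 min (0.34, not called). At 45 min it was at 48.2, 48.7 and 49.8 CPM against 40.5, 39.1 and 33.9 CPM (0.37), a call lost without any 1 of the 6 libraries and under the replicate block, where the adjusted p was 0.0529.

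In complex V, ATP20 at 10 min was at 41.9, 48.6 and 37.2 CPM in mpk1Δ, 1.15 ± 0.26 above WT (adjusted p = 0.000681), and at 45 min at 11.6, 13.1 and 12.2 CPM (0.25, not called). ATP7 rose in mpk1Δ to 223, 288 and 226 CPM and kept 187, 184 and 207 CPM at 45 min, when WT was at 81.1, 86.8 and 90.7 CPM. The difference at 45 min was 1.16 ± 0.13 (adjusted p = 2.65e-08), the largest in the complex then. ATP18, which rose under heat in WT, stayed at 115, 117 and 107 CPM at 10 min and 122, 93.3 and 116 CPM at 45 min in mpk1Δ. It was −0.20 ± 0.16 (adjusted p = 0.331) and then −0.40 ± 0.17 from WT (adjusted p = 0.035), the latter lost without WT replicate A or C or mpk1Δ replicate B and 0.36 under total counts.

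The change from 0 min was also compared between strains, as a signed difference in which a positive value can be a stronger rise or a weaker fall. In mpk1Δ minus WT it was positive for 25 of the 38 genes at 10 min and negative for 1, against 7.98% and 13.3% of all genes. COX4, for example, changed by −1.11 in WT and by 0.75 in mpk1Δ. At 45 min it was positive for 17 and negative for 4, against 17.5% and 24.7%. COX4 then changed by −1.97 in WT and −0.17 in mpk1Δ, and COX6 by −0.81 and 0.45. The 4 negative ones were CYC7, COX5B, ATP18 and QCR8. For COX5B (−1.33 ± 0.29, adjusted p = 0.000569) and CYC7 (−2.29 ± 0.83, adjusted p = 0.0257) both strains were high at 45 min and mpk1Δ started higher. The CYC7 value was not called without replicate A of mpk1Δ at 0 or 45 min, WT replicate B or C at 0 min or WT replicate C at 45 min.

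The loss of RRP6 had a smaller count at 10 min. Before heat 7 of the 38 genes were higher in rrp6Δ than in WT and none lower, against 9.32% and 4.64% of all genes: COX5B, COX7, QCR6, QCR9, CYT1, ATP1 and ATP7. QCR6, the acidic hinge subunit of complex III, was 0.78 ± 0.17 higher (adjusted p = 0.00104). At 10 min 8 were higher and none lower (14.5% and 15.8% of all genes). At 45 min 21 were higher and 2 lower, against 21.7% and 24.7%. In a fit of only the 6 libraries compared the count before heat was 20, 19 higher and 1 lower. The share of all genes called in that fit is not given here, so the 20 cannot be set against all genes. The count before heat was 3 or 4 without WT replicate A or C or rrp6Δ replicate A. The count at 10 min was 4 or 5 without WT replicate A or B.

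COX6, a subunit of complex IV, kept a high level in heated rrp6Δ. After 45 min it was at 98.1, 134 and 128 CPM against 47.1, 40.1 and 41.7 CPM in WT, 1.49 ± 0.15 higher (adjusted p = 3.2e-09), and its heat response differed by 1.68 ± 0.20 (adjusted p = 2.27e-07). RIP1 was at 129, 151 and 174 CPM in rrp6Δ at 45 min, above the 40.1 to 75.1 CPM of WT, by 1.52 ± 0.21 (adjusted p = 1.06e-06). The 2 genes lower in rrp6Δ were SDH1 and ATP1. SDH1 was at 97.2, 117 and 137 CPM, below every WT library at that time, by −0.76 ± 0.21 (adjusted p = 0.004), and ATP1 was −0.38 ± 0.13 (adjusted p = 0.0137), and neither was called under total counts. Of the heat responses, 1 gene differed from WT at 10 min, ATP1 at −0.70 ± 0.18 (adjusted p = 0.00784), against 4.79% of all genes higher and 8.38% lower. At 45 min the signed difference was positive for 9 and negative for 2 (12.6% and 19.6% of all genes), a count of 6 without WT replicate A or rrp6Δ replicate C.

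In the double deletion COX5B and CYC7 were again raised before heat. Before heat 2 genes were higher than in WT, COX5B and CYC7, and 4 were lower, COX4, ATP3, ATP4 and ATP16, against 14.8% and 11.6% of all genes. COX4 was −1.18 ± 0.27 from WT (adjusted p = 0.00148). A fit of only the libraries compared called 15 at 0 min, 5 higher and 10 lower, and 8 at 10 min, without the share of all genes in that fit beside them. At 10 min 13 were higher and 1 lower (18.7% and 18.5% of all genes), a count of 9 in all without WT replicate B or the double deletion's replicate C. At 45 min 19 were higher and 2 lower (24.7% and 27.4%). COX6 was again higher at 45 min, at 108, 91.6 and 115 CPM, by 1.30 ± 0.15, and SDH1 lower, at 110, 96.1 and 140 CPM, by −0.79 ± 0.21 (adjusted p = 0.0028, not called under total counts).

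Against mpk1Δ, the double deletion had no member called at 0 min by edgeR fitted to all 12 groups or by DESeq2 (4.67% of all genes higher and 2.61% lower), and 4 of the 38 had an unadjusted p under 0.05. An edgeR fit of only the 6 libraries compared called 6, 2 higher and 4 lower, a count not set against all genes in that fit. At 10 min 13 genes were lower than in mpk1Δ and none higher (11.5% of all genes higher and 8.51% lower), all 4 of complex II among them. COX4 was at 26.3, 18.4 and 45.4 CPM in the double deletion, below the mpk1Δ libraries by −1.21 ± 0.26 (adjusted p = 0.00161). SDH1 was at 74.9, 58.8 and 112 CPM, −0.96 ± 0.21 from mpk1Δ. In both genes replicate C was the highest of the 3. The count of 13 was 0 in a fit of only the 6 libraries compared. It was 2 without mpk1Δ replicate B or the double deletion's replicate B, 5 without its replicate A, and 24 without its heated libraries of letter C. At 45 min 4 genes were higher (ATP14, COX5B, COX6 and QCR8) and 4 lower (SDH1, COX5A, COX4 and COX9), against 15.5% and 12.3% of all genes, a count of 1 in a fit of only the libraries compared and of 3 to 5 without mpk1Δ replicate A or the double deletion's replicate A or B.

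Against rrp6Δ, 2 members were higher in the double deletion before heat, COX5B and CYC7, and 8 lower (5.72% and 4.11% of all genes). The count was 3 to 6 in all without rrp6Δ replicate A or any 1 double-deletion library. It was 19 in a fit of only the libraries compared, a count not set against all genes in that fit. At 10 min ATP1 was higher by 0.39 and CYC1 lower by −0.75, against 4.77% and 3.92% of all genes. At 45 min QCR8 alone was lower, by −0.57, against 6.78% higher and 6.05% lower. A fit of only the libraries compared called no member at 10 or 45 min.

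The signed difference in heat response, double deletion minus WT, was positive for 7 genes at 10 min and negative for 1, CYC1, against 9.14% and 11% of all genes. CYC1 changed by 0.10 in WT and by −0.96 in the double deletion, and COX4 by −1.11 and 0.04. That count ranged from 2 to 13 as single libraries were left out, and COX4, at 1.15 ± 0.38 (adjusted p = 0.0306), lost its call without 7 of them. At 45 min 16 were positive and 2 negative (15.9% and 21%), 11 in all without the double deletion's replicate C at 45 min. COX6 differed by 1.62 ± 0.20, with a change of −0.81 in WT and 0.81 in the double deletion. The 2 negative ones were COX5B, which rose less than in WT, and CYC1, which changed by −0.80 in WT and −1.52 in the double deletion.

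Whether the double deletion equalled the sum of the single deletions was tested as a departure from additivity on the log2 scale. No member was called at 0 min by edgeR fitted to all 12 groups or by DESeq2, with 4 at an unadjusted p under 0.05 (0.166% of all genes higher and 0.864% lower), while edgeR fitted to the 0 min libraries alone called 3, all below the sum. At 10 min 14 members lay below the sum and none above, against 10.2% of all genes above and 6.63% below, with a median of −0.70. At 45 min 18 lay below and 1 above, against 16.8% of all genes below and 21.5% above, with a median of −0.71. COX4 was −1.33 ± 0.39 from the sum at 10 min (adjusted p = 0.0185), lost without replicate B of mpk1Δ or of the double deletion or replicate C of rrp6Δ. QCR10 was −1.53 ± 0.37 at 45 min (adjusted p = 0.00199), when it stood at 35.3, 33.3 and 57.4 CPM in the double deletion and 48.2, 56.3 and 50.4 CPM in mpk1Δ. In fits of only the libraries of each time the counts were 2 at 10 min and 12 at 45 min. The 10 min count was 2 without replicate B of mpk1Δ or of the double deletion and 27 without the double deletion's replicate C, and the 45 min count was 9 to 12 without WT replicate B, the double deletion's replicate B or rrp6Δ replicate C.

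The regulators of these genes moved as well. Of 10 regulator genes, 7 rose and 1 fell in WT at 10 min, and the same numbers were called at 45 min. Of all genes 38.2% rose and 36.2% fell at 10 min, and 41% and 39.2% at 45 min. HAP4 went from 33.8, 46.9 and 82.8 CPM to 605, 521 and 790 CPM at 10 min and 379, 375 and 443 CPM at 45 min, changes of 3.56 ± 0.32 (adjusted p = 3.4e-11) and 2.88 ± 0.32 (adjusted p = 1.31e-09). HAP1 rose by 2.27 and 3.13. HAP2 and HAP5, DNA-binding partners in the CCAAT complex, rose by 1.79 and 0.64 at 10 min, and HAP3 fell by 0.49, a call that rested on single libraries. ROX1 rose by 1.40 at 10 min and was not called at 45 min (0.26), while MOT3, another repressor of hypoxic genes, rose by 1.84 and 1.98. MIG1, the glucose repressor, was not called (0.31 and −0.30).

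HAP4 in mpk1Δ differed from WT in the other direction than most members. It was at 351, 374 and 480 CPM at 10 min, below every WT library but not called (−0.67, adjusted p = 0.0577). At 45 min it was at 109, 170 and 149 CPM, −1.48 ± 0.30 from WT (adjusted p = 8.18e-05). HAP1 was −0.59 and −1.62 from WT at these times.

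Transcripts for the proteins that restrain the ATPase activity of complex V rose with heat in WT, 3 of 3 at 10 min, when 38.2% of all genes rose. INH1, the inhibitor itself, went from 11.9, 10.8 and 14.2 CPM to 23.3, 18.7 and 32.3 CPM, a change of 1.06 ± 0.27 (adjusted p = 0.000708), and stood at 13.8, 10.4 and 12.8 CPM at 45 min (−0.04, not called). STF1 and STF2, its stabilizing factors, rose by 2.55 and 5.50 at 10 min. In mpk1Δ INH1 was lower than in WT before heat, at 6.24, 4.06 and 4.06 CPM (−1.32 ± 0.30, adjusted p = 0.00272), and higher under heat. It stood at 62.6, 85.3 and 60.7 CPM at 10 min (1.46 ± 0.23, adjusted p = 8.14e-06) and at 45.9, 53.5 and 46.2 CPM at 45 min (2.04 ± 0.28, adjusted p = 3.94e-07).

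Among other genes that feed electrons into the chain, 5 of 6 rose and 1 fell at 10 min in WT, against 38.2% and 36.2% of all genes. CYB2, the lactate dehydrogenase of the intermembrane space, went from 0.9128, 1.446 and 0.9037 CPM to 51.0, 39.8 and 51.0 CPM, a change of 5.33 ± 0.35 (adjusted p = 2.98e-14). GUT2, the mitochondrial glycerol-3-phosphate dehydrogenase, rose by 2.39, NDI1, the internal NADH dehydrogenase, by 2.14, and DLD1 by 1.28. Of the external NADH dehydrogenases, NDE2 went from 0 to 0.3043 CPM up to 9.519 to 10.62 CPM, while NDE1 was the gene that fell, by 0.57, a call that rested on single libraries. The complex II paralog SDH9 rose by 3.45 and SHH4 by 0.98, and SHH3 was not called.

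Of 3 genes for factors of the III-IV supercomplex, 1 rose and 2 fell in WT at 10 min, against 38.2% and 36.2% of all genes. The carriers of adenine nucleotides differed among themselves. AAC1 and AAC3, minor ADP/ATP carriers, rose by 3.19 and 1.84 at 10 min, PET9, the main one, was not called (0.28), and the phosphate carrier MIR1 fell by 0.45, lost without WT replicate B. Among assembly genes at 10 min in WT, when 38.2% of all genes rose and 36.2% fell, all 4 of complex II were higher, from SDH7 at 0.72 to SDH6 at 4.89. For complex III 4 of 9 were higher and 2 lower, with CBS1 the highest called at 0.74. The lowest called was CYC3 at −1.09, which this list holds although it is the heme lyase of cytochrome c and not of complex III. For complex IV 10 of 22 were higher and 1 lower, from COX20 at 1.35 to PET309 at −0.43. For complex V 3 of 8 were higher and 1 lower, from AEP3 at 4.27 to ATP11 at −0.87. The shares higher for complexes III, IV and V were thus close to that of all genes. In mpk1Δ against WT at 45 min, when 29.9% of all genes were higher and 31.5% lower, 3 of 4 complex II assembly genes were higher (SDH7 by 1.60), and 8 of 22 of complex IV were higher and 4 lower, with PET494 at 1.10 and PET111 at −1.48. Of the list for complex III 5 of 9 were higher and 2 lower, with CYC3, which acts on cytochrome c, at 1.65 and CBS2 at −0.53. Of the assembly genes of complex V 2 of 8 were higher and 3 lower (ATP10 at 0.97, AEP3 at −1.24). These lists are small, that of complex II the smallest with 4 genes. For the other complexes several shares lie near those of all genes.

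The mitochondrially encoded subunits could not be followed. Over all 36 libraries COX1 had 9 counts, COX2 12, COX3 8, COB 6, ATP6 4, OLI1 10 and ATP8 0, and none passed the filter, so nuclear and mitochondrial genes of the same complex could not be compared.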

How the data were processed

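Total RNA of 36 libraries was sequenced. Per the submitters' processing notes the reads were aligned with HISAT2 2.1.0 to build R64 and counted with HTSeq, and the authors deposited raw counts per open reading frame. The sources used here give neither the HTSeq version nor whether strand was used, so reads of antisense partners cannot be told apart. The lines for unassigned reads were left out of library sizes and tests.

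The counts as deposited were analysed with edgeR 4.0.16 in R 4.3.3. Genes passed filterByExpr with a minimum count of 10 and a minimum total of 15, libraries were scaled by TMM, and glmQLFit was fitted with 1 coefficient for each of the 12 groups. glmQLFTest p-values were adjusted by Benjamini-Hochberg over 6017 genes, with a threshold of 0.05. The SE is the log2 difference divided by the root of the F statistic. CPM divides counts by the TMM-scaled library size. The common biological coefficient of variation was 0.1535. Isoform ratios are log2 ratios of counts with a pseudocount of 1, tested by exact permutation within strains or within times (scipy 1.17.1, Python 3.11.15). The tests were tried on simulated data first.

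The alternatives were DESeq2 1.42.0, its size factors in edgeR, scaling by total counts, no filter on low counts, a mean of at least 5 CPM, only the samples compared, a replicate block, each library left out, and the heated double-deletion libraries of letter C left out together. The replicate letters are not stated to mark a shared day or culture. Deviations from the group means correlated above 0.1 for all 3 letters in 8 of 27 comparisons. Between strains these were mpk1Δ against WT at 0 and 45 min and the double deletion against WT at each time. Within strains they were 45 against 10 min in WT, mpk1Δ and the double deletion. The highest correlation, 0.571, was that of letter B between 10 and 45 min in the double deletion.

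Any of the 38 genes could be named. Values per library are given for the isoform genes and, per complex, for the members with the highest and lowest change in 4 comparisons: WT at 10 and at 45 min, and mpk1Δ against WT at both. Further values per library were added after the results were seen. In other lists the highest and lowest called genes are named. The 38 genes and all lists were chosen with earlier results of these data known.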

Additional observations from a re-analysis of the deposited data

Results flagged for a closer look

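Differences between strains in the response to heat were tested as signed interaction terms in edgeR (deletion minus WT, so that a positive value can be a stronger rise or a weaker fall), and each result here has at least 1 gene for which that test was called. In mpk1Δ the response at 10 min differed from that of WT for 26 of the 38 genes, COX4 by 1.86 on the log2 scale. Of all genes 7.98% were higher and 13.3% lower in that test. At 45 min the response differed for 21, CYC7 by −2.29 (17.5% and 24.7% of all genes). In rrp6Δ the response differed for 1 gene at 10 min, ATP1 by −0.70 (4.79% and 8.38% of all genes). At 45 min it differed for 11, COX6 by 1.68 (12.6% and 19.6% of all genes, 23.7% and 5.26% of the members). In the double deletion the response differed for 8 genes at 10 min, COX4 by 1.15 (9.14% and 11% of all genes). At 45 min it differed for 18, COX6 by 1.62 (15.9% and 21% of all genes).

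The double deletion departed from the sum of the single deletions for 14 genes at 10 min, COX4 by −1.33, and for 19 at 45 min, QCR10 by −1.53. Of all genes 10.2% lay above the sum and 6.63% below at 10 min, and 21.5% and 16.8% at 45 min. The wide range of the 10 min count as libraries are left out is given with the processing. No cause was tested for any of these differences.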

How the results depend on the processing

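Of 2943 values for single genes under alternatives other than leaving out a library, 2755 kept their direction and their side of the threshold, 57 fell short of it, 114 newly passed it and 17 turned direction, all 17 under total counts. In WT at 45 min these were COX7 (−0.10), QCR2 (−0.063), COR1 (−0.29), QCR6 (−0.064), QCR7 (−0.54), HAP5 (−0.069) and PET9 (−0.71). In mpk1Δ against WT at 45 min they were ATP1 (0.53), ATP18 (0.36), QCR2 (0.62), QCR8 (0.0364), CYC1 (0.17), SDH3 (0.65), CBS2 (0.22) and STF2 (0.70). The other turns were QCR8 in the 45 min heat response of mpk1Δ (0.0189) and ATP1 in the 45 min departure from additivity (−0.10). Of 3000 values with 1 library left out, 227 fell short of the threshold and none turned.

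Total counts gave 5 members called in rrp6Δ against WT at 10 min, 3 and 2 in the double deletion against rrp6Δ at 0 and 45 min, 2 in the 10 min heat response of the double deletion and 30 in the departure from additivity at 45 min. Of all 6017 genes 704 were then higher and 789 lower, 392 and 87, and 964 and 127 in the first 3 of these comparisons. In the last 2 they were 260 and 838, and 450 and 2430. WT at 10 and 45 min had 12 members higher and 12 lower, and 5 and 25. Of all 6017 genes these numbers were 1680 and 2805, and 1618 and 3311.

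A fit of only the samples compared gave 2 in the double deletion from 10 to 45 min, 12 in mpk1Δ against WT at 0 min (5 higher, 7 lower), 20 in rrp6Δ against WT at 0 min (19 and 1), 15 and 8 in the double deletion against WT at 0 and 10 min, 6, 0 and 1 in the double deletion against mpk1Δ at 0, 10 and 45 min, and 19, 0 and 0 against rrp6Δ. It gave 3 in the 10 min response of rrp6Δ, and 3, 2 and 12 for additivity at 0, 10 and 45 min. This fit also changed how many of all genes were called. In mpk1Δ against WT at 0 min 1181 were higher and 1086 lower of 5450, against 600 and 314 of 6017 with all 12 groups. In the double deletion from 10 to 45 min the numbers were 385 and 476 of 5771, against 1014 and 1101 of 6017. For the other comparisons of this fit the numbers for all genes are not given here. DESeq2 and its size factors each gave 4 in mpk1Δ against WT at 0 min, and no low-count filter gave 5 in the double deletion against mpk1Δ at 45 min.

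The replicate block gave 2 in the double deletion against rrp6Δ at 45 min and 23 for additivity at 10 min, and moved no other count by over 1.5 times. With the block, COX4 in mpk1Δ at 0 min was called (adjusted p = 0.0473) and COX8 at 45 min was not (adjusted p = 0.0529), in comparisons where the letters pair. Without the heated double-deletion libraries of letter C, the double deletion against mpk1Δ at 10 min gave 24, against rrp6Δ at 45 min 3, its 10 min response 4, and additivity at 10 min 30.

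With single libraries left out, counts ranged from 8 to 15 in rrp6Δ and 5 to 22 in the double deletion from 10 to 45 min, 3 to 7 and 4 to 10 in rrp6Δ against WT at 0 and 10 min, and 9 to 19 in the double deletion against WT at 10 min. They ranged from 2 to 19 and 3 to 11 in the double deletion against mpk1Δ at 10 and 45 min, and 3 to 9, 1 to 3 and 0 to 3 against rrp6Δ at 0, 10 and 45 min. Heat responses gave 6 to 11 in rrp6Δ at 45 min, 2 to 13 and 11 to 19 in the double deletion at 10 and 45 min, and additivity 2 to 27 and 9 to 25. Counts for WT heat (22 to 24 and 26 to 30) and mpk1Δ against WT (24 to 34 and 18 to 25) stayed within 1.5 times. The COX5B to COX5A log2 ratio of mpk1Δ minus WT was 0.7403 to 1.004, with exact permutation adjusted p up to 0.0885. Apart from the total-count scaling and the constructions named, the cause was not tested. Genes with few counts before heat, CYC7 above all, carry the widest errors.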
